A study of Mus musculus with 6 samples.

Results

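The miRNAs described here are those of the red blood cell lineage, miR-451a, miR-144 and miR-486. They were taken from the counts of known miRNAs by name, as every mature name equal to mmu-miR-451a, mmu-miR-144, mmu-miR-486a or mmu-miR-486b or beginning with one of these and an arm suffix. This gave 7 of the 535 mature miRNA names. The names mmu-miR-486a-5p and mmu-miR-486b-5p had identical counts in every library, as did mmu-miR-486a-3p and mmu-miR-486b-3p, so each pair was treated once and 5 names with counts of their own remained.

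Small RNA was sequenced from total RNA of 3 samples enriched for nephron progenitors (MNP) and 3 samples of whole kidney (MWK). Both groups were wildtype CD1 mouse embryos at embryonic day 15.5, from 3 litters, and no treatment is named. MNP cells were what was left of a limited digest of intact kidneys after magnetic beads had removed cells carrying CD140a, CD105, Epcam or Ter119, and MWK samples were the kidney tissue left over from the digestion. RNA was purified with a different kit in each group (miRNeasy Micro for MNP, miRNeasy Mini for MWK), so the kit and the sort cannot be told apart from the group. Ter119 is a surface protein of the red cell lineage, and its antibody took part in the sort of every MNP sample. The MNP levels, and the differences from MWK, can therefore be set by that step.

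In mammals the hairpins of miR-144 and miR-451a are cut from one primary transcript that GATA1 switches on as red cell precursors mature. Argonaute 2 itself slices the miR-451a hairpin, without Dicer, whereas miR-144 follows the usual route and leaves a product from each arm of its hairpin. miR-486 lies within Ank1, the gene of the red cell membrane protein ankyrin 1, and is abundant both in red cells and in striated muscle.

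With one count per mature name, the libraries MNP1, MNP2 and MNP6 held 393951, 436113 and 333850 counts, and MWK1, MWK2 and MWK6 held 349241, 360221 and 355848. The columns MNP6 and MWK6 match no single sample by name and entered their group without a replicate number. Levels are in CPM, in which every library is brought to a common total with the factors of TMM, edgeR's trimmed mean method. A level of 3 counts, taken as the least a library can show, lay between 6.53 and 9.44 CPM. Intervals and this floor cover counting error only, since reads carry no molecular identifier. The comparison of MNP with MWK asks which miRNAs differ between the progenitor-enriched cells and the kidney tissue left over from digestion (whole kidney here). It was made over the 525 names with more than 10 counts in all libraries together, by edgeR's quasi-likelihood F-test with Benjamini-Hochberg adjustment, with a threshold of 0.05 on the adjusted p. All 5 erythroid names passed that filter, miR-486a-3p with a sum of only 11 counts. The p-values measure the spread between these samples.

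The erythroid miRNAs were lower in MNP than in MWK. Of the 5 names, 4 were past the threshold and lower in MNP, where 17.1% of all names tested were, and miR-486a-3p was not past it. In either direction 192 of the 525 names, or 36.6%, were past the threshold. For the same 4 names every MNP library lay below every MWK library, a separation seen in this direction for 23.2% of all names tested. The median log2 fold change of the 5 names was -2.10, beside -0.01 over all 525. In such bulk samples, fewer cells of a type and less of the RNA in each cell cannot be told apart.

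miR-451a was the most abundant of the set in whole kidney. Its level was 138 CPM in MNP1, 102 CPM in MNP2 and 60.4 CPM in MNP6, and 673, 671 and 365 CPM in MWK1, MWK2 and MWK6. The groups did not overlap, and the library numbered 6 was the lowest in each. The means were 100.2 ± 38.8 CPM in MNP and 569.8 ± 177 CPM in MWK (SD, n = 3 each). This is a log2 fold change of -2.50, with a standard error of 0.32 (adjusted p = 5.3e-05, edgeR's quasi-likelihood F-test with Benjamini-Hochberg adjustment). Relative to the MWK mean, MNP held 17.6% of the level, with 24.2% in MNP1 and 10.6% in MNP6 as the highest and the lowest. Signal therefore stayed measurable in each MNP library. The lowest, 23 counts in MNP6, has an exact 95% Poisson interval of 14.6 to 34.5 counts, which lies below the interval of 42.3 to 72.7 around the 56 counts of MNP1. By level, miR-451a ranked 113 of 525 in MWK and 213 in MNP.

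miR-144-3p, from the neighbouring hairpin, had the lowest share of the whole kidney level among the set. It was at 86.2, 43.6 and 15.8 CPM in MNP1, MNP2 and MNP6, compared with 399.8, 390.4 and 187 CPM in MWK1, MWK2 and MWK6. All MNP libraries were again below all MWK libraries, MNP6 and MWK6 were lowest, and the MNP libraries were spread more widely than those of MWK, with a highest level 5.47 times the lowest against 2.14 times. The mean was 48.5 ± 35.5 CPM in MNP and 326 ± 120.2 CPM in MWK (SD, n = 3 each), which is 14.9% of the whole kidney level. The log2 fold change was -2.73 with a standard error of 0.44 (adjusted p = 0.00032 from edgeR's quasi-likelihood F-test with Benjamini-Hochberg adjustment). The size of this difference depended on which MNP library was left out. Without MNP1, the MNP library with the most miR-144-3p, the log2 fold change was larger, at -3.39. Without MNP6, the one with the least, it was smaller, at -2.37. In MNP6 only 6 counts were found, with an exact 95% Poisson interval of 2.2 to 13.1.

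miR-144-5p, the product of the other arm, was rare in both groups. Counts were 4, 7 and 2 in MNP1, MNP2 and MNP6, compared with 19, 19 and 7 in MWK1, MWK2 and MWK6. These correspond to 9.85, 15.2 and 5.25 CPM in MNP and to 57.1, 59.8 and 20.5 CPM in MWK. The groups did not overlap on the CPM scale, although MNP2 and MWK6 had the same count of 7, and MNP6 was under the floor. The log2 fold change was -2.10 with a standard error of 0.51 (adjusted p = 0.0056, edgeR's quasi-likelihood F-test with Benjamini-Hochberg adjustment). In total, the 3p arm supplied 82.4% of the counts of both arms in MNP and 87.7% in MWK. By library this share was 89.7%, 74.1% and 75% in MNP1, MNP2 and MNP6, compared with 87.5%, 86.7% and 90.1% in MWK1, MWK2 and MWK6. MNP1 lay among the MWK libraries and the other MNP libraries lay below them, on few counts of the 5p arm.

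miR-486a-5p, which stands here also for miR-486b-5p, had the smallest log2 fold change of the 4 names past the threshold. Its level was 148, 119.8 and 94.6 CPM in MNP1, MNP2 and MNP6, compared with 358, 353 and 190.0 CPM in MWK1, MWK2 and MWK6. No MNP library reached the lowest MWK library, MWK6. The MNP mean of 121 ± 26.6 CPM was 40.2% of the MWK mean of 300.1 ± 95.4 CPM (SD, n = 3 each). The log2 fold change was -1.31, with a standard error of 0.29 and an adjusted p of 0.0028 by edgeR's quasi-likelihood F-test with Benjamini-Hochberg adjustment. The table pairs this sequence with a mir-486a and a mir-486b hairpin, and the first holds between 82.1% and 92.3% of the counts of the second, depending on the library. Reads of the 2 hairpins could not be separated, so the values describe both together.

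miR-486a-3p, which stands also for miR-486b-3p, was found at 4, 1 and 0 counts in MNP1, MNP2 and MNP6, compared with 2, 4 and 0 counts in MWK1, MWK2 and MWK6. Its group means of 4.01 and 6.20 CPM were both under the level of 3 counts, the groups overlapped, and no difference was detectable at this depth (adjusted p = 0.76, edgeR's quasi-likelihood F-test with Benjamini-Hochberg adjustment). Over all libraries the 5p arm supplied 97.6% of the counts of both arms.

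**Figure D1:**
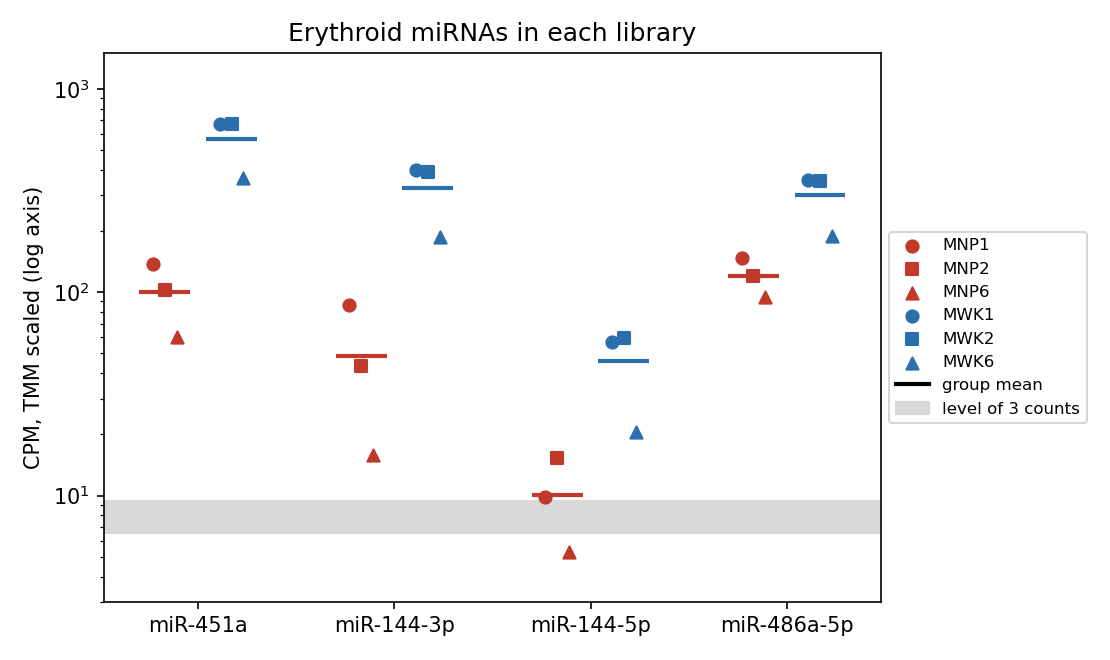
Levels of miR-451a, miR-144-3p, miR-144-5p and miR-486a-5p in CPM on a log axis, 1 point per library with bars at the group means; the grey band is the level of 3 counts in the different libraries, and equal shapes name the column numbers only. For each of the 4 miRNAs the MNP points (red) lie below the MWK points (blue), with MNP6 and MWK6 lowest in their groups.

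The erythroid names had their lowest libraries in common. MNP6 was the lowest or tied lowest MNP library and MWK6 the lowest or tied lowest MWK library for all 5 names, a pattern shown by 123 of the 525 names tested (23.4%). For miR-486a-3p this rests on 0 counts in both, and the names of the shared transcript are not independent. The summed level of the 5 names was 391, 283 and 176 CPM in MNP1, MNP2 and MNP6, compared with 1494, 1486 and 763 CPM in MWK1, MWK2 and MWK6. The highest MNP library was thus at 31.4% of the MWK mean and the lowest at 14.1%. Leaving both libraries numbered 6 out, the other 4 libraries gave the same count of 4 erythroid names past the threshold and lower among 5, where 76 of all 487 names tested in those libraries were lower and 134 were past it in either direction.

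The make-up of the summed signal differed between the groups. miR-451a made up 35.2%, 36.2% and 34.3% of it in MNP1, MNP2 and MNP6, compared with 45.1%, 45.1% and 47.9% in MWK1, MWK2 and MWK6. miR-486a-5p made up 37.7%, 42.3% and 53.7% in the MNP libraries and 23.9%, 23.7% and 24.9% in the MWK libraries, in the same order. miR-451a thus held the larger share in every MWK library. In MNP1 and MNP2 the counts of miR-486a-5p and miR-451a, 60 against 56 and 55 against 47, differed by less than their counting intervals, and on the mir-486a row miR-486a-5p had 54 counts in MNP1, so their order in MNP is not settled.

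miR-451a was also set against other single miRNAs as a ratio within each library, after adding 0.5 counts to each. There were 5 such ratios, tested by a two-sided exact permutation test with Benjamini-Hochberg adjustment over the 5, and 3 libraries against 3 cannot give a p under 0.1. Per count of miR-486a-5p there were 0.934, 0.856 and 0.644 counts of miR-451a in MNP1, MNP2 and MNP6. In MWK1, MWK2 and MWK6 this ratio was 1.88, 1.90 and 1.92, so the MWK libraries were nearly equal, also MWK6 with its lower levels, and all MNP libraries lay below them. The mean log2 ratio was lower in MNP by a difference of -1.24 (exact permutation p = 0.1, adjusted 0.125). This ratio restates the shares above on another scale and is no separate observation.

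The ratio of miR-451a to miR-144-3p, its neighbour on the chromosome, was 1.59, 2.32 and 3.62 in MNP1, MNP2 and MNP6, compared with 1.68, 1.71 and 1.95 in MWK1, MWK2 and MWK6. MNP1 lay below and the other MNP libraries above all MWK libraries, and the difference in mean log2 ratio of 0.42 was smaller than the SD of 0.59 among MNP libraries (exact permutation p = 0.4, adjusted 0.4). A change in this ratio was therefore not detectable, with miR-144-3p at only 6 counts in MNP6.

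miR-142a-5p, made by blood cells of the white lineages, served as another point of reference. The ratio of miR-451a to it was 3.90, 2.88 and 2.24 in MNP1, MNP2 and MNP6, compared with 17.96, 14.7 and 13.2 in MWK1, MWK2 and MWK6, a log2 difference of -2.37 with no overlap (exact permutation p = 0.1, adjusted 0.125). Against miR-126a-3p of endothelial cells and miR-200c-3p of epithelial cells the ratio went the other way. The log2 ratio of miR-451a to miR-126a-3p was -1.52, -2.42 and -3.18 in MNP1, MNP2 and MNP6, compared with -4.82, -4.91 and -5.55 in MWK1, MWK2 and MWK6, higher in MNP by 2.72 (exact permutation p = 0.1, adjusted 0.125). To miR-200c-3p it was 4.50, 3.40 and 2.38 in the MNP libraries and -0.07, -0.28 and -1.38 in the MWK libraries, higher in MNP by 4.0 (exact permutation p = 0.1, adjusted 0.125). The MNP values of this ratio rest on only 2, 4 and 4 counts of miR-200c-3p, and adding 2 counts in place of 0.5 gave a difference of 3.55. In these libraries the level of miR-451a in MNP was thus a larger share of whole kidney than those of the endothelial and the epithelial miRNA, and a smaller share than those of miR-486a-5p and miR-142a-5p. The groups did not overlap in any of these 4 ratios, and each p was the smallest the design allows. Each ratio restates the levels of its 2 miRNAs and is no observation apart from their fold changes. With log2 fold changes of -5.23 for miR-126a-3p and -6.62 for miR-200c-3p, a higher ratio in MNP follows from those levels.

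**Figure D2:**
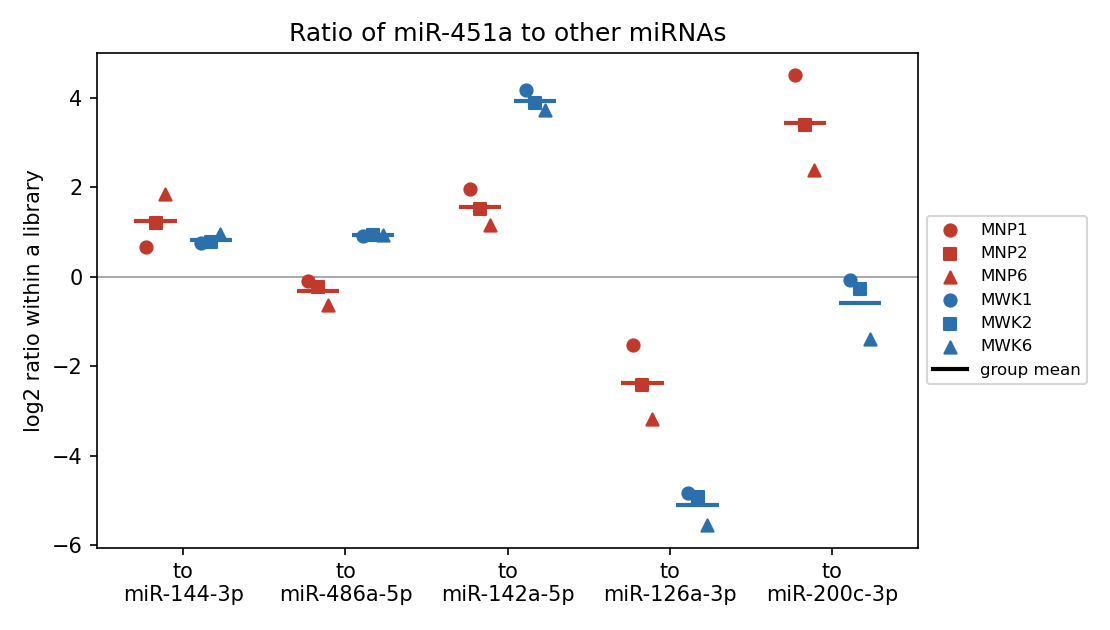
log2 ratio of miR-451a to 5 other miRNAs within each library (0.5 counts added to each), 1 point per library with bars at the group means. The MNP points (red) lie below the MWK points (blue) for miR-486a-5p and miR-142a-5p, above them for miR-126a-3p and miR-200c-3p, and on both sides of them for miR-144-3p.

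The other cell types of the kidney were read from miRNAs, since small RNA libraries do not count mRNA, and the study's qPCR of marker mRNAs was not used here. Both endothelial markers, miR-126a-3p and miR-126a-5p, were lower in MNP, at a summed level of 530.3 ± 97.2 CPM against 19868 ± 1583 CPM (SD, n = 3 each), which is 2.67% of the whole kidney level. The epithelial markers miR-200a-3p, miR-200b-3p, miR-200c-3p, miR-141-3p and miR-429-3p, of which miR-200a-3p was the most abundant, were all lower and summed to 0.960% of the MWK level. Among them miR-141-3p was at 0 counts in all MNP libraries, at least 4.61-fold lower against 3 counts per library, and the median log2 fold change of the 5 was -6.46 with this miRNA at its bound. The summed erythroid names, at 22.7% of the MWK level, thus lay at a larger share of whole kidney than the marker miRNAs of endothelial and epithelial cells, which CD105 and Epcam antibodies bind. Of the stromal and smooth muscle markers, miR-143-3p (-1.33) and miR-145a-5p (-1.86) were past the threshold and lower on the log2 scale, and miR-199a-3p (0.23), miR-199a-5p (0.40) and miR-214-3p (0.17) were not past it, so that the median of the list was 0.17. That list, of the cells that CD140a antibodies bind among others, summed to 54.4% of the MWK level, a larger share than that of the erythroid names, but most of this sum in either group was miR-143-3p. The part of these cell types in the erythroid values was not tested.

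Of the 7 leukocyte and platelet miRNAs listed, 1 was past the threshold, and it was higher in MNP, as were 19.4% of all names tested. Their summed level was 226, 218 and 113 CPM in MNP1, MNP2 and MNP6 against 204, 220.4 and 129 CPM in MWK1, MWK2 and MWK6. The groups overlapped, with MNP6 and MWK6 again lowest, and the MNP mean was 100.7% of the MWK mean. The median log2 fold change of the list was -0.14, with miR-223-5p at its bound as well. miR-146a-5p, the most abundant, had the lowest log2 fold change of the list, -0.61, at 64.9% of its MWK level and not past the threshold, and miR-142a-3p, miR-142a-5p, miR-150-5p, miR-155-5p and miR-223-3p had log2 fold changes of 0.74, -0.14, -0.20, -0.59 and 0.99. miR-223-5p was the name past the threshold, with 15.2 ± 4.68 CPM there (SD, n = 3) and 0 counts in all MWK libraries, at least 1.68-fold higher against 3 counts per library. The sort used the 4 antibodies named above and no others are described.

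Of 12 further miRNAs that are abundant in red cells but also made by many other tissues, 5 were past the threshold and lower in MNP, where 17.1% of all names tested were, and 7 were not past it. The lower ones were miR-363-3p, miR-96-5p, miR-182-5p, miR-15b-5p and miR-22-3p, with log2 fold changes of -2.89, -1.01, -0.72, -0.72 and -0.65. miR-16-5p (-0.57), miR-15a-5p (-0.22), miR-25-3p (0.15), miR-92a-3p (0.00), miR-107-3p (-0.32), miR-183-5p (-0.47) and miR-191-5p (-0.11) were not past it. The list had a median of -0.52, and its summed level in MNP was 88.7% of that in MWK, and miR-92a-3p was its most abundant member. Each of the 12 lay above 3 counts in every library. Only miR-363-3p, at 13.3% of its whole kidney level, was lowered as far as miR-451a and miR-144-3p.

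Among 4 miRNAs known to decline while red cells mature, miR-24-3p was lower in MNP, its log2 fold change being -0.65 (adjusted p = 0.016, edgeR's quasi-likelihood F-test with Benjamini-Hochberg adjustment). Of all names tested, 17.1% were past the threshold and lower. miR-221-3p (0.33), miR-222-3p (0.32) and miR-155-5p (-0.59) were not past the threshold. The striated muscle miRNAs were considered because miR-486 is also made in muscle. miR-206-3p was past the threshold and higher in MNP, as were 19.4% of all names tested. Its level was 187, 281 and 65.7 CPM in MNP1, MNP2 and MNP6 against 0, 15.7 and 2.92 CPM in MWK1, MWK2 and MWK6. miR-1a-3p, at 104 ± 37.9 CPM in MNP and 70.1 ± 23.8 CPM in MWK (SD, n = 3 each), and miR-133a-3p were not past the threshold. Counts of miR-133a-3p were 4, 7 and 0 in MNP1, MNP2 and MNP6, compared with 3, 0 and 1 in MWK1, MWK2 and MWK6. The summed level of these 3 muscle miRNAs was 300.3, 438 and 131 CPM in MNP1, MNP2 and MNP6, compared with 66.1, 113 and 61.4 CPM in MWK1, MWK2 and MWK6. This sum was higher in every MNP than in every MWK library, whereas miR-486a-5p was lower. Among the 3, however, only miR-206-3p separated the groups, and those of miR-1a-3p and miR-133a-3p overlapped. The part of muscle miRNAs in the smaller reduction of miR-486a-5p was not tested.

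**Figure D3:**
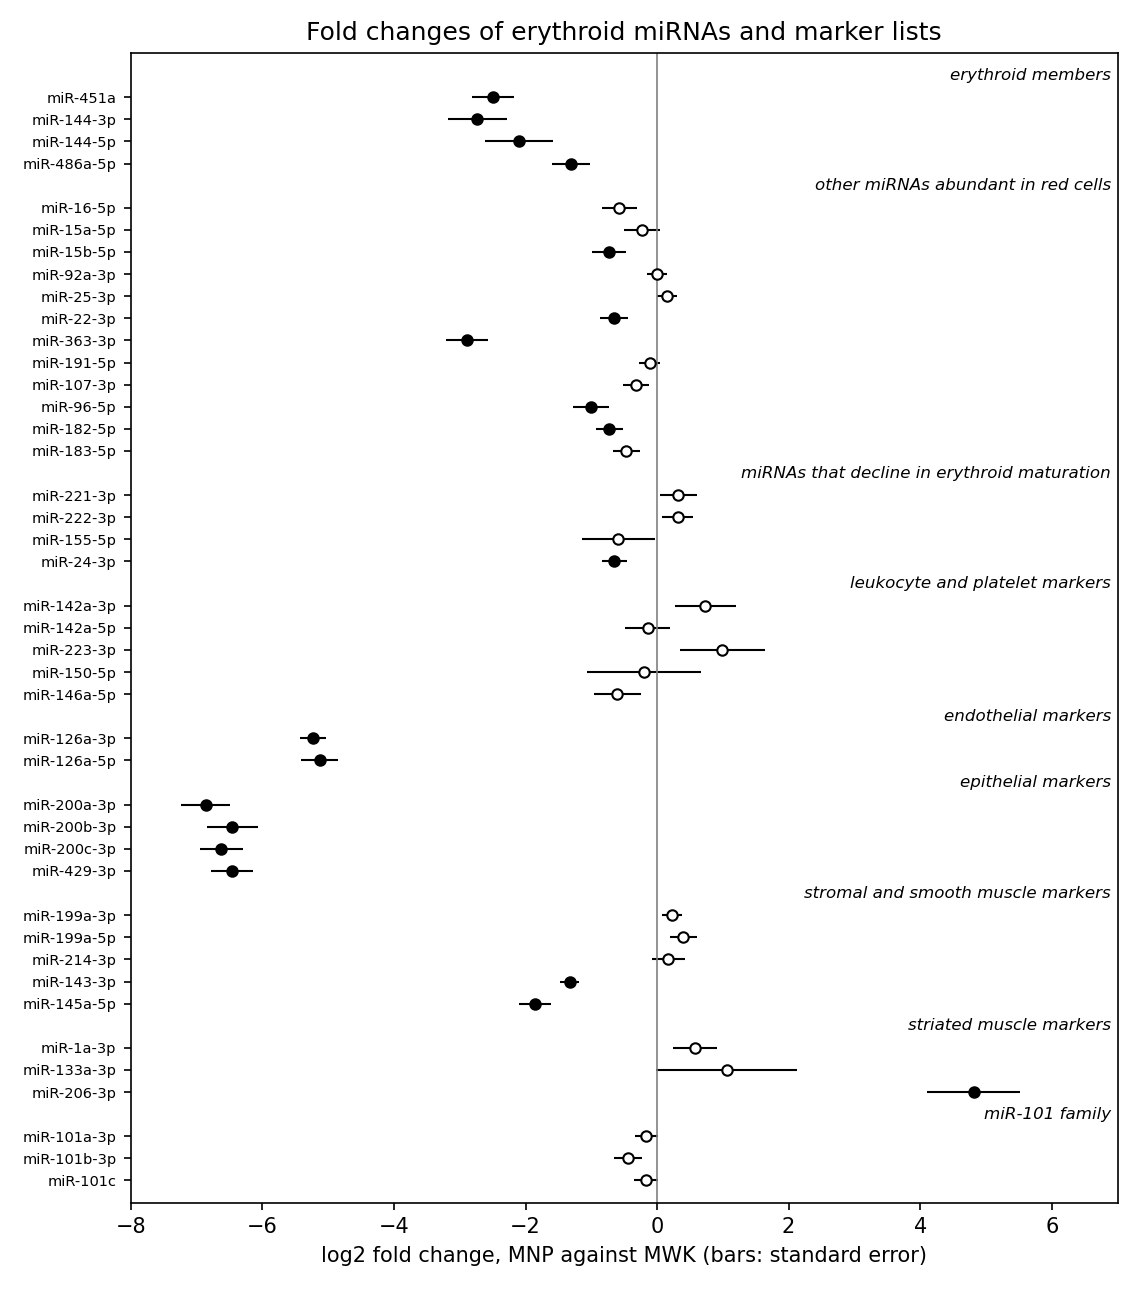
log2 fold change of MNP against MWK with its standard error for the erythroid miRNAs and the marker lists, filled where past the threshold of edgeR's test; miR-155-5p, in 2 lists, is drawn once, and miR-486a-3p, with both means under 3 counts, and miR-141-3p and miR-223-5p, at 0 in a group, are left out. The erythroid names lie between -2.73 and -1.31, right of the endothelial and epithelial names and left of the leukocyte names.

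The miRNAs outside the set with the profile most like that of miR-451a were found by the root mean square distance between log2 CPM profiles over the 6 libraries, each centred on its own mean, among 282 names with a mean of at least 50 CPM. The nearest were miR-322-5p at a distance of 0.31, miR-187-3p at 0.32, miR-30a-5p at 0.33, miR-363-3p at 0.33 and miR-192-5p at 0.35, where the median distance was 1.3. Their levels in MNP were 20.8%, 15.6%, 19.2%, 13.3% and 23.1% of those in MWK, shares that the choice of the nearest profiles brings near to that of miR-451a. By the same measure miR-144-3p lay at 0.33, miR-144-5p at 0.50 and miR-486a-5p at 0.63.

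The hairpins of mir-144 and mir-451a lie on the plus strand of chromosome 11 in mm10, at chr11:78073005-78073070 and chr11:78073170-78073241, with 99 bases between them. Neither overlaps a gene other than a miRNA in GENCODE. The nearest coding genes are Eral1 on the minus strand, whose annotated 3′ end is 135 bases past the mir-451a hairpin, and Flot2, which ends 12571 bases before the mir-144 hairpin. Mir451b is annotated on the opposite strand of the mir-451a interval, and miR-451b was not analysed here. The mir-486 gene is annotated at chr8:23142555-23142682 on the plus strand, in an intron of Ank1 (chr8:22974844-23150497, plus strand) and of the antisense gene Gm15816. Mir3107, which RefSeq lists also as mir-486b, is annotated inside the same interval at chr8:23142573-23142662 on the minus strand, so the 2 hairpins come from opposite strands of one stretch of DNA.

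**Figure D4:**
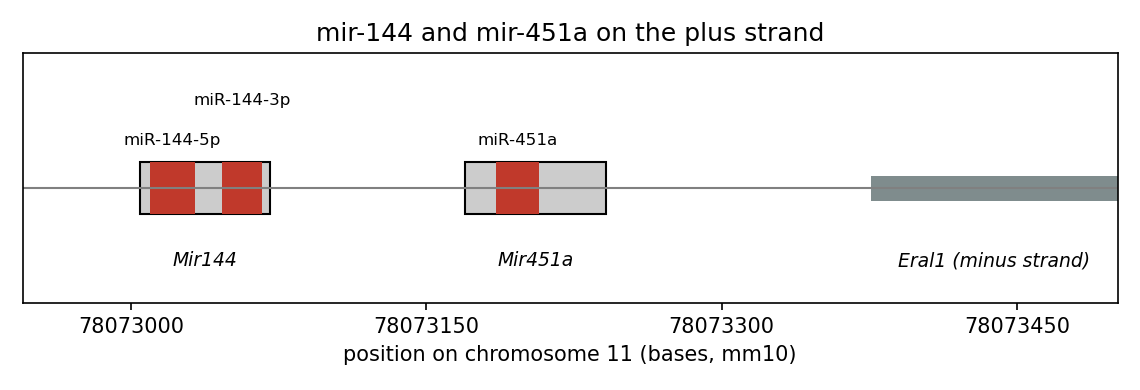
Map of mir-144 and mir-451a on chromosome 11 (mm10, position in bases): grey boxes are hairpins, red boxes mature miRNAs and the bar at the right is the 3′ end of Eral1. The hairpins are 99 bases apart on the same strand, and miR-451a lies in the 5′ part of its hairpin only.

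Sequences of 3 of the 7 names were in RefSeq (GRCm38.p6). They are shown because the bases 2 to 8 of a miRNA, the seed (in capitals), determine most of its target pairing, and because miR-144-3p shares bases with the miR-101 family, printed for comparison.
mmu-miR-451a: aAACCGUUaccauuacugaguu
mmu-miR-144-3p: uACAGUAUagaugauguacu
mmu-miR-144-5p: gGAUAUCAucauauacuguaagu
mmu-miR-101a-3p: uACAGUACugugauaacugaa
mmu-miR-101b-3p: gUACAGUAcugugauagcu
mmu-miR-101c: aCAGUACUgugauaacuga

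No seed of these erythroid miRNAs was shared with another of the 431 tested names that had a RefSeq sequence, and the 3 seeds differ from one another. The other names tested, those of miR-486 among them, were not compared. Over the shorter stretch of bases 2 to 7, miR-144-3p matched miR-101a-3p, and the same 6 bases stand at positions 3 to 8 of miR-101b-3p and 1 to 6 of miR-101c. The miR-101 names were much more abundant. With miR-101a-3p and miR-101c, whose counts were nearly the same in every library, taken once, they summed to 6255 ± 1555 CPM in MNP and 7861 ± 564 CPM in MWK (SD, n = 3 each). Their log2 fold changes were -0.16, -0.45 and -0.16 for miR-101a-3p, miR-101b-3p and miR-101c, with adjusted p of 0.56, 0.13 and 0.56 by edgeR's quasi-likelihood F-test. miR-144-3p, at 48.5 and 326 CPM, was thus a small part of the molecules with these bases in both groups.

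The hairpins, with mature sequences in capitals, show how miR-451a differs from miR-144 in its place within the precursor.
Mir451a: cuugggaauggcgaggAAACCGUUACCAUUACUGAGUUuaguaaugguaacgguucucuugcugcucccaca
Mir144: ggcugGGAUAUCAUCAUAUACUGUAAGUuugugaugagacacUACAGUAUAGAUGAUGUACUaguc

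miR-451a covers bases 17 to 38 of its hairpin of 72 bases. The longest exact stem there pairs bases 18 to 33 with bases 40 to 55, a run of 16 base pairs with 6 bases between, so miR-451a runs along the whole of the 5′ side of this stem and on into the loop. The mir-144 hairpin of 66 bases carries miR-144-5p at bases 6 to 28 and miR-144-3p at bases 43 to 62, on opposite sides of its loop, and its longest exact stem is 9 base pairs. The table lists products of both arms for mir-144 and 1 product for mir-451a.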

How the data were processed

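Before deposit the authors removed adapters (BBDuk), mapped the reads on mm10 (Bowtie2 2.2.3) and quantified miRBase entries (miRDeep2). The deposited values are estimated counts without normalization for 792 pairs of a mature miRNA and a precursor. Members and lists were chosen with earlier results of these data known. The highest count over the rows of a mature name was taken per library and rounded to whole numbers (3 rows held fractions). The tests had been written for whole counts and were used on the rounded values. edgeR 4.0.16 in R 4.3.3 fitted the 525 names with more than 10 counts in all, and DESeq2 1.42.0 and limma 3.58.1 were alternatives. Standard errors were obtained as the size of a log2 fold change over the root of its F. The named miRNAs were the members, the lists given, the 5 profiles most like that of miR-451a and any name sharing a member's seed. Other alternatives covered scaling, filter, rows, identical names, replicate block and left-out libraries. The steps were tested on simulated data. Genes came from GENCODE M21 of the same build. Permutation p-values were counted directly over all splits of 3 libraries against 3. SciPy 1.17.1 gave their adjustment and the Poisson intervals, and matplotlib 3.10.9 the figures.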

Additional observations from a re-analysis of the deposited data

How the results depend on the processing

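miR-451a, miR-144-3p, miR-144-5p and miR-486a-5p were lower in MNP and past the threshold in every alternative that tested them (17, 16, 16 and 17 alternatives). The log2 fold change lay between -2.78 and -2.28 for miR-451a, between -3.39 and -2.37 for miR-144-3p, between -2.54 and -1.85 for miR-144-5p and between -1.55 and -1.11 for miR-486a-5p. Adjusted p reached 0.043 for miR-144-5p. Requiring more than 10 counts in each library left 260 names and gave 120 past the threshold in place of 192, and 2 erythroid names in place of 4. Only miR-451a and miR-486a-5p passed that filter, because the others have fewer counts in some library. Leaving out 1 library at a time gave between 144 and 211 names past the threshold and 4 erythroid names each time. Scaling by library totals raised the median log2 fold change of all names by 0.20, and the erythroid names stayed past the threshold. Fitted with the shared number as a replicate block, the 4 numbered libraries gave 158 names past the threshold against 134 without it, with 4 erythroid names in both. Equal numbers are not stated to mark a litter, and the differences between numbers 1 and 2 correlated at 0.039 across 525 names. Neither this correlation nor the block fit used the libraries numbered 6, which were both lowest or tied lowest for 123 of the 525 names. Whether that number marks a shared origin was not tested. The ratios of miR-451a moved by less than the larger of the SDs within MNP and within MWK in all 8 alternatives each. For miR-144-3p the log2 difference ranged from 0.11 to 0.70 with a library left out. Counts under about 10 limit miR-144-5p and miR-486a-3p.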
